A study of Homo sapiens with 4 samples.

Results

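The mRNAs described here encode proteins of the mitochondrial ribosome and of the mitochondrial protein import machinery, as seen in the peaks of a YTHDF2 RNA immunoprecipitation sequencing (RIP-seq) experiment. Each peak was given to the gene named in its exon or intron annotation, or otherwise to the gene whose span contained the peak summit, and protein-coding genes whose symbols begin with MRPL, MRPS, TIMM or TOMM and a number were kept. Of 102 such genes, 61 had at least 1 peak, among 6960 protein-coding genes with a peak. These 61 genes held 74 of the 14858 peaks.

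The labels describe 4 libraries from HCCLM3, a metastatic human hepatocellular carcinoma line, 2 of YTHDF2 RIP and 2 of input RNA, all from cells labelled WT. The authors' file is a single combined peak list with no value for any single library, so neither a spread between replicates nor sequencing depth could be given. No control pulldown was among the libraries, and a peak therefore shows enrichment in the RIP over input and not binding by itself. A gene without a peak has no value in the list. Of 13 hepatocyte and hepatocellular carcinoma markers, 4 had a peak, and only the keratins KRT8 (2.84-fold over 274 RIP fragments) and KRT18 (1.98-fold over 204) had one at a q no higher than 0.01. Of 6 markers of blood, stromal and endothelial cells, 4 had a peak, and only that of HBB (5.87-fold over 8 fragments) reached that q. Over all protein-coding genes, 34.7% had a peak, and 53.2% of those had one at that q. A peak list gives no expression level for either group of markers.

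The mitochondrial ribosome translates the few proteins that the mitochondrial genome encodes, all of them parts of the respiratory chain and ATP synthase. Its own proteins are encoded in the nucleus, made in the cytosol and imported. The TOM complex of the outer membrane admits nearly all such precursors. The TIM23 complex and its motor then take proteins with a presequence across the inner membrane, whereas small TIM chaperones and the TIM22 complex deliver carrier proteins into it. YTHDF2 is a cytosolic protein that binds RNA carrying N6-methyladenosine (m6A) and is known for recruiting deadenylases to it.

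Most peaks of these genes carried the labels promoter or 3' UTR, and the promoter windows of some leading genes are printed here because promoter was the commonest class. That class goes by distance from an annotated start and reaches as far as 2-3 kb from it, as in TOMM6. In a short gene it can take in the 3' end, so the label does not place a peak at a promoter or in these windows. The 5 windows are those of the gene in each functional group with the highest fold among peaks of at least 20 fragments and a q no higher than 0.01 whose window was in the table used. Each runs from 250 bases before to 50 bases after the annotated start (RefSeq, GRCh38.p14), 5' to 3' on the gene's strand. Capitals mark the motif CCGGAAG, bound by ETS family factors such as GABP, on either strand. The windows lie at chr2:27771469-27771768 on the plus strand (MRPL33), chr7:43869468-43869767 on the minus strand (MRPS24), chr1:201955253-201955552 on the plus strand (TIMM17A), chr19:2427537-2427836 on the minus strand (TIMM13) and chr6:41787444-41787743 on the plus strand (TOMM6).
MRPL33: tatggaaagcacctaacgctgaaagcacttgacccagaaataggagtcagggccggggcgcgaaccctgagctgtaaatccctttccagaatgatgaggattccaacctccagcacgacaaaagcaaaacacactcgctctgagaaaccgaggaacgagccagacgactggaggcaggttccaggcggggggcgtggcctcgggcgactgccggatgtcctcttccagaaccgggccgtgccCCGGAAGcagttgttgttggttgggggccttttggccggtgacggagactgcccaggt
MRPS24: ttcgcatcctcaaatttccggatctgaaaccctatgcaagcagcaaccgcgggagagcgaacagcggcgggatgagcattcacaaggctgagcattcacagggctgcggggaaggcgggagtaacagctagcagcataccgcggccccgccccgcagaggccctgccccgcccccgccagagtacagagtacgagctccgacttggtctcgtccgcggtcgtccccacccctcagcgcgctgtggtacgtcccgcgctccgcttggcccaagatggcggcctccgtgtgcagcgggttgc
TIMM17A: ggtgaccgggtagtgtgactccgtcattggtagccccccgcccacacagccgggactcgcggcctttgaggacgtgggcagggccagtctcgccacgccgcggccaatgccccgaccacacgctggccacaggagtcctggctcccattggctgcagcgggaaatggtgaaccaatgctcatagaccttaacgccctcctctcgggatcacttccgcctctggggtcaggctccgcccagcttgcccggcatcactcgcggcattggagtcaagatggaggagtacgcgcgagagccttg
TIMM13: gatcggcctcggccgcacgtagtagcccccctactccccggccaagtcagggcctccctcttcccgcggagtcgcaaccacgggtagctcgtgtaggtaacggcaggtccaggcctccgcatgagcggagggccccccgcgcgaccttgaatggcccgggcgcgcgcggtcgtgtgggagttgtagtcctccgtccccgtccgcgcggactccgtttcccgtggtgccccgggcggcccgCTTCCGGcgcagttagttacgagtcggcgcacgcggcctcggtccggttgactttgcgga
TOMM6: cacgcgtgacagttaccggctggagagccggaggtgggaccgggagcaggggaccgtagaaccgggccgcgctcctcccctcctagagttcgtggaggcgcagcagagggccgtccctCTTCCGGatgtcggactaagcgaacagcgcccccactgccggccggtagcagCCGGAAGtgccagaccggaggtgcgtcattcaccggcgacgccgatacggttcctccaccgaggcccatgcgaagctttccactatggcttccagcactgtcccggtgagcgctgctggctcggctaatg

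Of the 55 windows whose gene had a peak on a main chromosome, none was overlapped by that gene's own peaks. The nearest edge lay 166 bases past the start, in MRPL51, and in the 5 genes printed the nearest edges lay 7837 (MRPL33), 2760 (MRPS24), 1951 (TIMM17A), 843 (TIMM13) and 2016 (TOMM6) bases past it. Of the 92 genes of these names with a window in the table, 40 (43.5%) held CCGGAAG or its reverse complement, against 2255 of 15843 protein-coding genes (14.2%). Among the members with a peak the share was 27 of 57 (47.4%). Among the 55 windows, MRPS34 held 3 copies, and TOMM6, MRPL20, MRPL27, MRPL51, MRPL53, MRPS21, TIMM23 and TOMM70 held 2 each. The motif GCGCATGCG of NRF1, another activator of nuclear genes for mitochondria, was found in 5 of the 92 windows (5.43%) on either strand, against 2.76% of all. MRPL17 was the only gene with a peak to hold it. Its 3 matches fall in 2 separate stretches, because 2 of them overlap on opposite strands. Both motifs stood together in 1 of the 92 windows. A match describes the letters of the window and shows no bound factor.

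Peaks were frequent among these genes and usually well supported. A peak was found for 61 of 102 genes (59.8%), against 34.7% of the 20056 protein-coding genes in the table. Of the 61, 48 (78.7%) had a passing peak, meaning one whose q was at most 0.01, against 53.2% of all protein-coding genes with a peak. By peaks, 55 of 74 (74.3%) passed, against 40.8% of the 12240 peaks of all protein-coding genes and 37.3% of the whole list. RIP fragments under a summit, recovered from the authors' fold and p-value, had a median of 94 over the members' best peaks (quartiles 57 and 131), against 22 (5 and 68) over all protein-coding genes with a peak. The background beneath them had a median of 40.8 fragments, against 7.48. At like fragment numbers the members did not pass more often where most of them lay: with at least 120 fragments the best peak itself passed in 20 of 21, against 732 of 769, and with 60 to 119 fragments 16 of 23, against 967 of 1195. With 20 to 59 fragments it passed in 8 of 9, against 1027 of 1634, and below 20 fragments 3 of 8, against 696 of 3362.

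The size of the enrichment was moderate. The best peak of a gene, meaning the one with the highest fold whatever its q, had a median fold of 2.34 (quartiles 1.94 and 2.92) in these genes, against 2.61 (2.04 and 3.23) in all protein-coding genes with a peak. On the log2 scale the medians were 1.23 and 1.38, a difference of -0.158. Of the members, 13 (21.3%) reached 3-fold or more, against 29.4% of all, and 17 (27.9%) stayed below 2-fold, against 23.8%. The remaining 31 lay between.

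**Figure D1:**
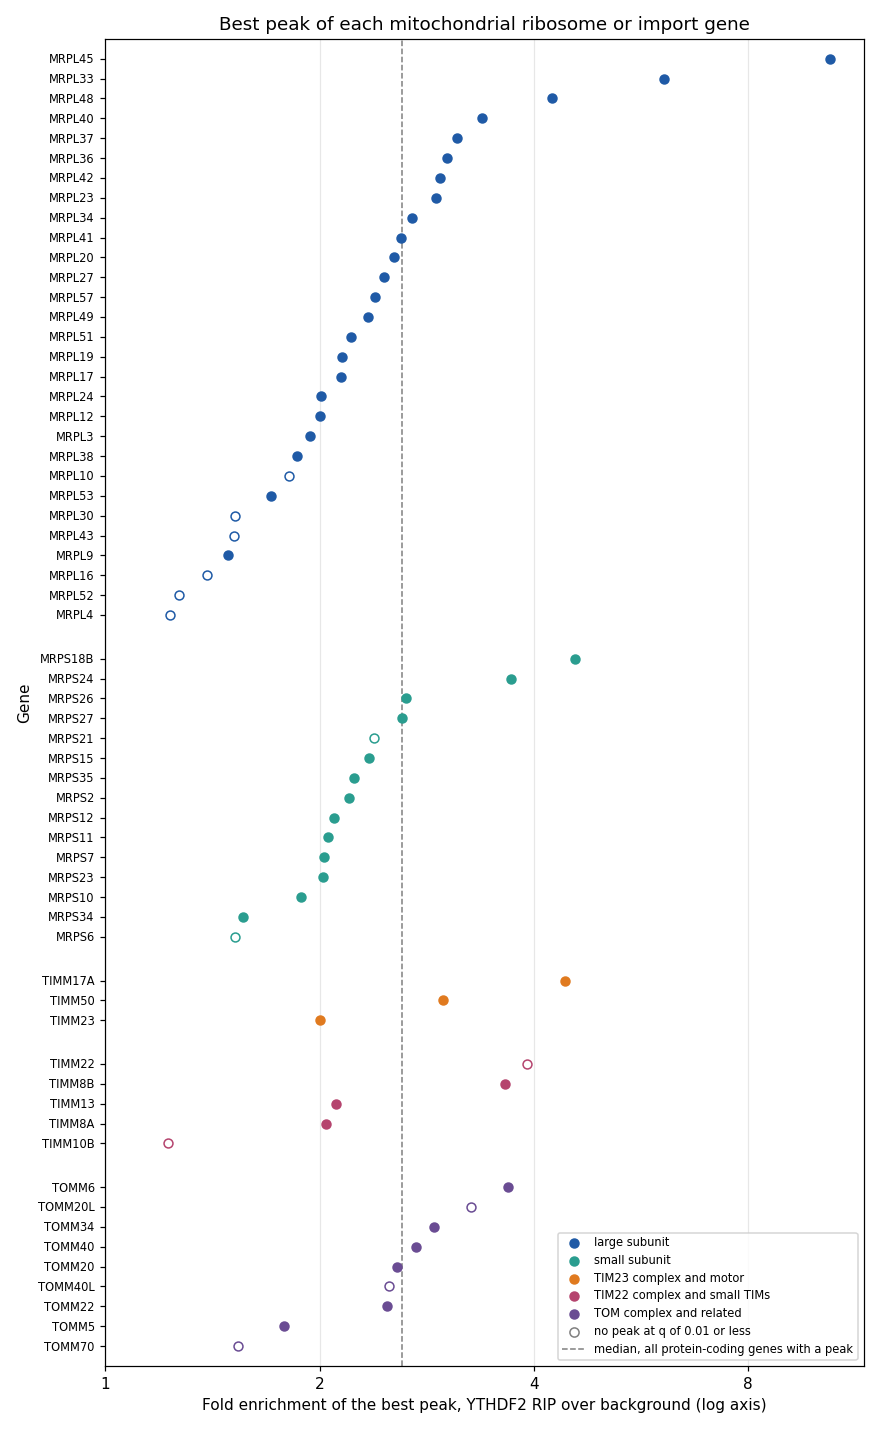
Fold enrichment of the best peak of each of the 61 genes (log axis), grouped by function and ordered by fold within each group. Filled points are genes with a peak at a q of 0.01 or less, open points are the 13 genes without one, and the dashed line is the median of 2.61 over all protein-coding genes with a peak. MRPL45 (10.4-fold) and MRPL33 (6.10-fold) stand at the top, and TIMM10B (1.23-fold) and MRPL4 (1.23-fold) at the bottom.

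The large subunit was the biggest group. Of its 49 genes, 29 had a peak and 23 a passing one, with best-peak folds from 1.23 to 10.4 and a median of 2.21. MRPL33, a small protein of the large subunit, had the strongest peak of all members by q. Its 3' UTR peak (chr2:27779556-27779916, hg38) reached 6.10-fold, with 90 RIP fragments over a background of 13.9 and a −log10 q of 36.9. Among all protein-coding genes with a passing peak its fold ranked 100 of 3703. Its summit lay 41 bases from the 3' end of the gene.

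MRPL45, a protein on the face of the ribosome that docks to the inner membrane, had a higher fold of 10.4, but from 15 RIP fragments over a background of 0.533, the value that 5 member peaks share. That exon peak lay at 2355611 to 2356023 of an alternative contig of chromosome 17, and MRPL45 had no peak on the main chromosome. MRPL48 had an exon peak (chr11:73817882-73818250) of 4.24-fold, which likewise rested on few fragments (9 over 1.36). Low background thus accompanied 2 of the 3 highest folds in the group.

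The next members had deeper peaks. MRPL40 had 131 RIP fragments over 38.1, or 3.38-fold, in a promoter-class peak (chr22:19435848-19436162) whose summit lay 126 bases from the 3' end. Its −log10 q of 27.2 was the fourth highest of the members. MRPL37 had 36 fragments over 10.9 in a 3' UTR peak of 3.12-fold (chr1:54218241-54218555). MRPL36 had 88 over 28.5, or 3.02-fold, in a peak (chr5:1798297-1798645) 139 bases from the 3' end.

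MRPL23 had a peak of 2.92-fold (chr11:1995844-1996361) over 138 fragments with a −log10 q of 22.8. Its summit also lay inside H19, a long non-coding RNA, and the deposited gene of that peak was the microRNA gene MIR675, which H19 hosts. The list carries no strand for the reads, so MRPL23 and H19 cannot be told apart there. MRPL41, whose whole gene spans 677 bp, had 152 fragments over 57.8, or 2.60-fold (chr9:137552317-137552649). MRPL17 had 157 over 72.7, or 2.14-fold.

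MRPL24 and MRPL19 each had 3 peaks, the most of any member. Those of MRPL24 all passed, with 2.01-fold over 147 fragments in the 3' UTR, 1.59-fold over 158 fragments and 1.61-fold over 263 fragments. The last had the most fragments of any member peak, and its summit also lay inside HDGF, a growth factor gene, upstream of the annotated start of MRPL24 used for its window. In MRPL19 the peak nearest the start had 2.15-fold over 64 fragments and passed. A 3' UTR peak of 1.79-fold over 72 fragments passed too, and the other 3' UTR peak, of 1.72-fold over 30 fragments, did not.

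MRPL12, which forms the flexible stalk of the large subunit and is also known to bind the mitochondrial RNA polymerase, had a promoter-class peak of 2.005-fold over 140 fragments that passed. Its 3' UTR peak of 1.44-fold over 138 fragments did not. The remaining passing peaks of the subunit were those of MRPL42 (2.95-fold, beside a second of 2.10-fold that missed), MRPL34 (2.70-fold), MRPL20 (2.54-fold), MRPL27 (2.46-fold), MRPL57 (2.40-fold), MRPL49 (2.34-fold), MRPL51 (2.21-fold), MRPL3 (1.94-fold), MRPL38 (1.86-fold), MRPL53 (1.71-fold) and MRPL9 (1.49-fold). The peaks of MRPL10, MRPL30, MRPL43, MRPL16, MRPL52 and MRPL4 did not pass. They ranged from 1.23-fold in MRPL4 to 1.81-fold in MRPL10 and rested on 35 to 141 fragments.

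In the small subunit, 15 of 28 genes had a peak and 13 a passing one, with a median best-peak fold of 2.20 and a range of 1.52 to 4.57. MRPS24 led among the deep peaks, with 91 RIP fragments over 23.8, or 3.71-fold, and a −log10 q of 21.4 (chr7:43866401-43866757). Its summit lay 94 bases from the 3' end and also inside the read-through gene URGCP-MRPS24. MRPS18B, a homolog of bacterial S18, had a higher fold of 4.57 from only 6 fragments over 0.533 (chr6:30626131-30626565).

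MRPS26 had 2 peaks that differed in enrichment within the same short gene. The one near its 3' end had 124 fragments over 46.2, or 2.65-fold, and passed (chr20:3048023-3048369). The one near its start had 104 over 85.0, or 1.22-fold, and did not (chr20:3046433-3046975). Both therefore held similar RIP fragment numbers, and the background differed.

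MRPS27, which contains the pentatricopeptide repeats of RNA-binding proteins, had a 3' UTR peak of 2.51-fold over 44 fragments that passed (chr5:72219410-72219745). An intron peak of 2.61-fold, its highest fold, rested on 3 fragments and did not pass. MRPS15 had 2.34-fold over 116 fragments in a 3' UTR peak, and MRPS35 2.24-fold over 91. MRPS34 had 199 fragments, the most in the subunit, over 127, which gave only 1.56-fold and still passed. MRPS2 (2.20-fold), MRPS12 (2.09-fold), a protein of the decoding centre, MRPS11 (2.05-fold), MRPS7 (2.03-fold), MRPS23 (2.02-fold) and MRPS10 (1.89-fold) had passing peaks within a narrow range. The summit of the MRPS2 peak also lay inside LOC101928525, a long non-coding RNA gene. MRPS23 and MRPS10 each had a second passing peak, of 1.89-fold and 1.80-fold. MRPS21 (2.38-fold over 3 fragments, intron) and MRPS6 (1.52-fold over 104 fragments, 3' UTR) had peaks that did not pass.

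The presequence translocase had 3 of 7 genes with a peak, and all 3 passed. TIMM17A, a core subunit of the TIM23 channel, led with 48 RIP fragments over 10.1, or 4.43-fold and a −log10 q of 14.1 (chr1:201957454-201957847). A second peak in its 3' UTR had more fragments, 65 over 31.3, and a lower fold of 2.05 (chr1:201970149-201970475). TIMM50, the receptor that hands presequences to the channel, had 2.98-fold over 22 fragments (chr19:39482908-39483225). Its summit also lay inside LOC124904718, a long non-coding RNA gene. TIMM23, the other core subunit, had 1.999-fold over 54 fragments in the 3' UTR (chr10:46003504-46003841). TIMM23 has a near-identical copy, TIMM23B, which had no peak, and the sources used here do not say how reads were divided between them.

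Among the small TIM chaperones and the TIM22 complex, 5 of 8 genes had a peak and 3 passed. TIMM8B stood out with 129 RIP fragments over 34.7, or 3.64-fold, and a −log10 q of 29.8, the third highest of the members (chr11:112084978-112085295). TIMM13 had a similar number of fragments, 133, over a higher background of 62.5, or 2.11-fold (chr19:2426418-2426743). TIMM8A, the partner of TIMM13 that is mutated in deafness-dystonia syndrome, had 2.04-fold over 71 fragments (chrX:101345916-101346404). TIMM22, the channel for carrier proteins, had 3.91-fold on an alternative contig of chromosome 17, from 5 fragments, and did not pass. TIMM10B had 86 fragments over 70.0, the lowest best-peak fold of all members at 1.23, and did not pass.

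The outer membrane group had the most complete coverage, with a peak in 9 of 10 genes and a passing peak in 6. TOMM6, a small subunit of the TOM complex, had 135 RIP fragments over 36.0, or 3.67-fold, and a −log10 q of 31.6, second only to MRPL33 (chr6:41789710-41790044). Its summit lay 66 bases from the 3' end. TOMM40, the import pore, had 144 over 52.0, or 2.73-fold, in a peak 54 bases from the 3' end (chr19:44903473-44903888). An exon peak of 1.61-fold over 76 fragments in TOMM40 did not pass.

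The receptors TOMM20 and TOMM22 had close values. TOMM20, which binds presequences, had 99 fragments over 37.9, or 2.57-fold, in the 3' UTR (chr1:235109203-235109600), and TOMM22 had 125 over 49.6, or 2.49-fold (chr22:38684253-38684628). TOMM70, the receptor for carrier precursors, had 61 over 39.4 in a peak 1542 bp wide, the widest of the members, and with 1.53-fold it did not pass. TOMM34, a cytosolic protein that binds chaperones, had 2 passing 3' UTR peaks, of 2.89-fold over 57 fragments and 1.58-fold over 133. TOMM5, another small subunit, had 203 fragments over 114 and thus 1.78-fold. The paralogs TOMM20L (3.26-fold over 4 fragments) and TOMM40L (2.50-fold over 10) had peaks that did not pass. The group medians of best-peak fold, 2.98 for the TIM23 group, 2.57 for TOM, 2.21 and 2.20 for the ribosomal subunits and 2.11 for the TIM22 group, lay well inside the range of each group and were not tested against each other.

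Genes with no peak were MRPL1, MRPL2, MRPL11, MRPL13, MRPL14, MRPL15, MRPL18, MRPL21, MRPL22, MRPL28, MRPL32, MRPL35, MRPL39, MRPL44, MRPL46, MRPL47, MRPL50, MRPL54, MRPL55 and MRPL58 of the large subunit, and MRPS5, MRPS9, MRPS14, MRPS16, MRPS17, MRPS18A, MRPS18C, MRPS22, MRPS25, MRPS28, MRPS30, MRPS31 and MRPS33 of the small subunit. The import genes without a peak were TIMM9, TIMM10, TIMM17B, TIMM21, TIMM23B, TIMM29, TIMM44 and TOMM7.

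In the deposited feature classes, 38 of the 74 peaks (51.4%, 95% Clopper-Pearson interval 39.4 to 63.1) were of the promoter class, against 18.2% of the 12240 peaks of all protein-coding genes. For some of the 38 the deposited start was that of another gene, such as NME3 for MRPS34 and OSBPL7 for MRPL10. The share is therefore not one of the members' own promoters. The 3' UTR class held 30 (40.5%, 29.3 to 52.6), against 33.0%, but this order turned among passing peaks, with 21 of 55 (38.2%) against 41.3%. Exons held 4 (5.41%, 1.49 to 13.3), against 23.3%, and introns 2 (2.70%, 0.329 to 9.42), against 22.9%. Intron peaks of all protein-coding genes had a median of 3 fragments, and among passing peaks introns held 0 of 55 in the members, which allows a share of up to 6.49% (the same exact interval), against 3.71%. The intervals cover counting error only. The members' genes were short, with a median span of 5414 bp where the best peak's position in the gene was known, against 42800 bp over all protein-coding genes with a peak. Within spans of at most 10000 bp the promoter share was 29 of 39 (74.4%) in the members, against 796 of 1318 (60.4%), and the 3' UTR share was 10 of 39 (25.6%), against 34.4%. Short genes therefore showed a large promoter share in both.

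**Figure D2:**
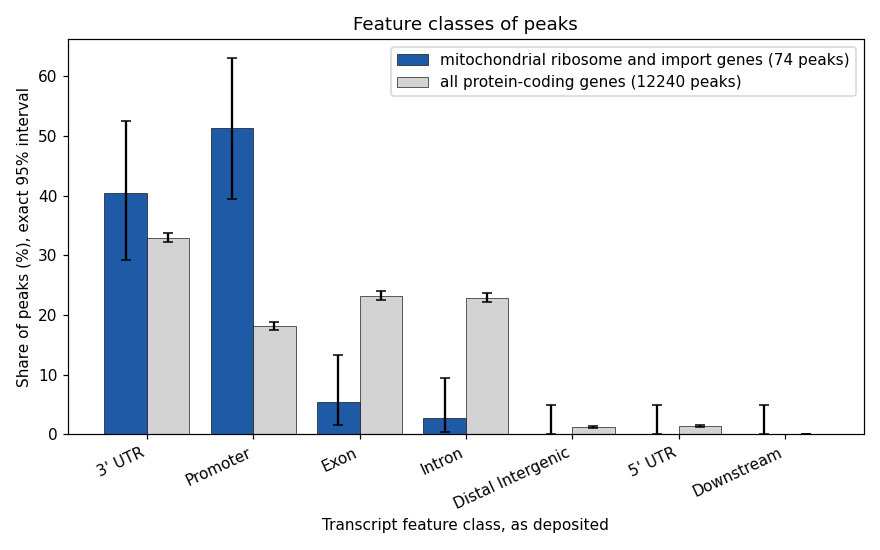
Share of peaks in each deposited transcript feature class for the 74 peaks of the mitochondrial ribosome and import genes and for the 12240 peaks of all protein-coding genes, with exact 95% intervals for counting error. The promoter class is taller in the mitochondrial genes (51.4% against 18.2%), and exon (5.41% against 23.3%) and intron shares (2.70% against 22.9%) are smaller.

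Passing peaks of these genes often lay near the 3' end. For the 53 passing peaks whose gene strand and main-chromosome span were known, the median distance from the summit to the 3' end of the gene span was 365 bp, against 3412 bp for 4671 passing peaks of all protein-coding genes. Over all 70 such member peaks, passing or not, it was 862.5 bp, against 11241 bp. Summits within 500 bp of that end made up 30 of 53 (56.6%), against 27.4%, and those within 150 bp made up 18 of 53 (33.96%), against 15.0%. The gap was narrower among short genes. In spans of at most 10000 bp, 20 of 31 passing member peaks (64.5%) lay within 500 bp of the 3' end, against 48.8% of 909. Both distances were chosen after the values were seen.

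Of 36 promoter-class member peaks with a known position, 15 (41.7%) lay within 500 bp of the gene's 3' end, against 23.6%, and 12 (33.3%) within 150 bp, against 10.6%. In spans of at most 10000 bp the share within 500 bp was 13 of 29 (44.8%), against 38.7%. Their median distance was 1025 bp, and 19 of the 36 lay closer to the 3' end than to the start. The 12 within 150 bp were the peaks of MRPL40, MRPL36, MRPL41, MRPL34, MRPL49, MRPL53, MRPS24, MRPS2, MRPS18B, MRPS26, TOMM6 and TOMM40. For the peaks of TOMM40 and MRPS18B the deposited gene was a neighbour, APOE and ATAT1, so the label refers to that gene's start. The deposited gene of the MRPL49 and MRPS2 peaks was also not the member itself, and no symbol was given for it. Passing summits within 500 bp of the 3' end had a median fold of 2.40, against 2.11 for those farther away, and the same medians were 2.60 and 2.34 over all protein-coding genes. Some passing summits lay far from the end of the span, such as those of MRPL37 (7109 bp), TIMM50 and MRPL42.

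**Figure D3:**
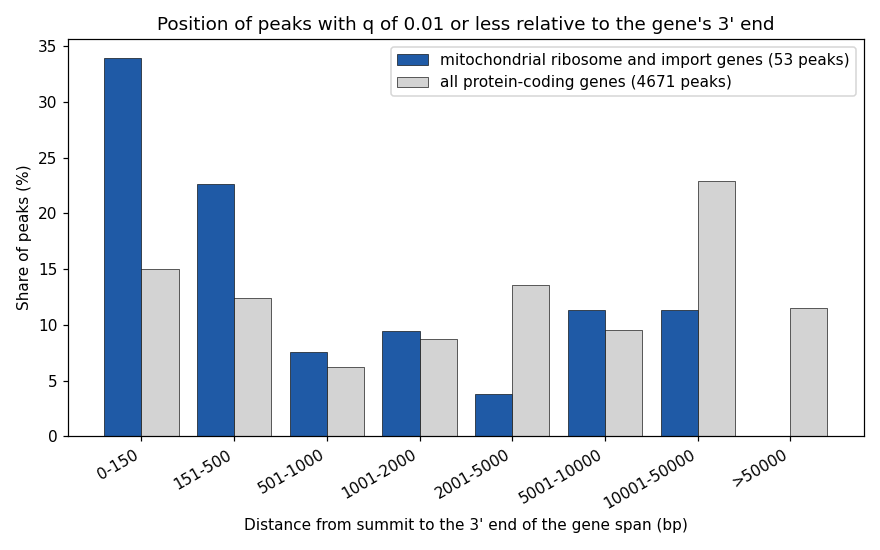
Distance in bp from the summit to the 3' end of the gene span, in bins, for passing peaks of the mitochondrial ribosome and import genes (53) and of all protein-coding genes (4671), as the share of peaks in each set. The bin of 0 to 150 bp holds 33.96% of the mitochondrial gene peaks, against 15.0%, and the bin beyond 50000 bp holds none of them, against 11.6%.

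Fold varied with how many fragments a peak held, and the comparison with other genes changed with it. With at least 120 RIP fragments, 21 members had a median best-peak fold of 2.11, against 2.23 in 769 protein-coding genes. With 60 to 119 fragments, 23 members had 2.15, against 2.11 in 1195. With 20 to 59 fragments the medians were 2.89 in 9 members, against 2.32 in 1634, and under 20 fragments they were 3.59 in 8 members, against 2.78 in 3362. A best peak under 20 fragments was thus found in 8 of 61 members, against 3362 of 6960 genes. Limited to peaks of at least 20 fragments, the median log2 folds were both 1.12 and differed by -0.00331. Across the 61 genes, fold and fragment number had a Spearman correlation of -0.287, and across the 48 passing genes of -0.446, a description of points that share the same libraries. Fragment number was itself solved from fold and −log10 p. Peaks of few fragments also need a higher fold to enter the list or to pass. Both may affect the sign and size of these correlations, to an extent that was not tested. The negative sign therefore shows no relation by itself.

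**Figure D4:**
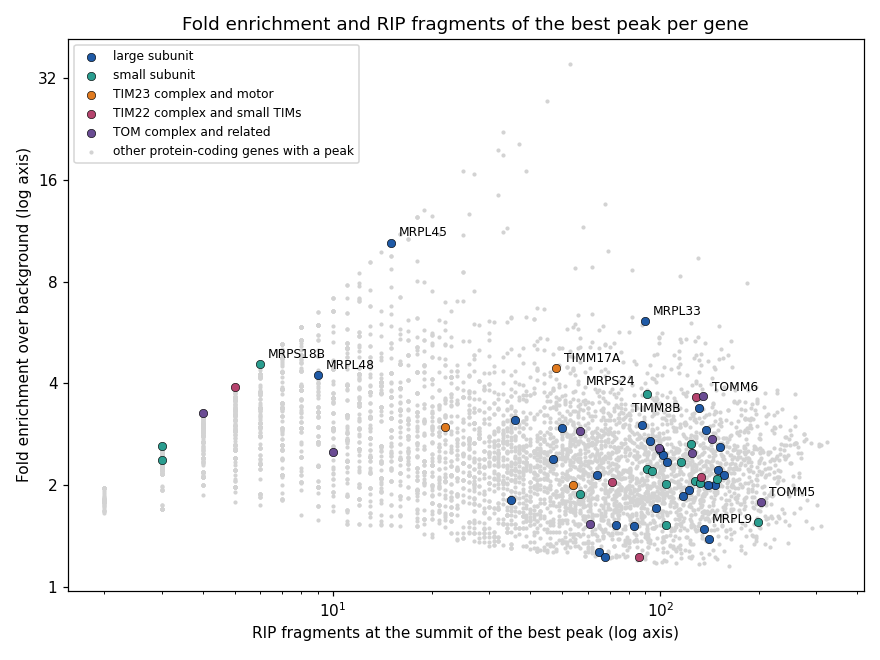
Fold enrichment of the best peak against the RIP fragments at its summit (both log axes), for the 61 mitochondrial ribosome and import genes in colour and other protein-coding genes with a peak in grey. Most coloured points lie at 60 or more fragments (44 of 61), MRPL33 stands apart there at 6.10-fold, and MRPL45 has its 10.4-fold at 15 fragments.

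Beside related gene families the members had lower median folds. The members' median of 2.34 over 94 fragments compared with 3.30 over 69 for 41 genes of oxidative phosphorylation subunits and with 2.66 over 123.5 for 62 cytosolic ribosomal protein genes. A peak was found for 61 of 102 members (59.8%), against 41 of 85 (48.2%) and 62 of 86 (72.1%) genes of those families. The share over all protein-coding genes was 34.7%. Among genes with a peak, 48 of 61 members (78.7%) had a passing one, against 35 of 41 (85.4%) and 61 of 62 (98.4%). Over all protein-coding genes with a peak that share was 53.2%. These families were picked by symbol, and the differences were not tested. The share of summits within 500 bp of the 3' end over all peaks was 47.1% in the members, 46.0% in the oxidative phosphorylation genes and 23.3% in the cytosolic ribosomal protein genes.

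Of 5 listed mitochondrial ribosome proteins with other names, 4 had a peak and all 4 passed. DAP3, a GTP-binding protein of the small subunit, led with 4.32-fold over 131 fragments and a −log10 q of 37.5, slightly above that of MRPL33 (chr1:155738317-155738648, 3' UTR). GADD45GIP1 of the large subunit had 2.42-fold over 130 fragments and CHCHD1 of the small subunit 2.17-fold over 66.

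Of 24 import and sorting genes with other names, 17 had a peak and 11 passed, with a median best-peak fold of 2.17. PAM16, a regulator of the import motor, had 11.1-fold in an exon peak of 21 fragments (chr16:4341068-4341490). MTX3 had 3.93-fold over 9 fragments and XPNPEP3, a mitochondrial aminopeptidase, 2.91-fold over 25.

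Of 12 mitochondrial translation factors, 7 had a peak and 5 passed. TUFM, the elongation factor Tu of mitochondria, led with 3.38-fold over 115 fragments and a −log10 q of 23.9, followed by GFM2 (2.91-fold over 20) and GUF1 (2.51-fold over 23). Of 23 genes of ribosome assembly and mitochondrial RNA binding, 9 had a peak and 6 passed, led by METTL17 (3.33-fold over 28), MPV17L2 (2.70-fold over 64) and ERAL1 (2.43-fold over 41). Of 17 mitochondrial tRNA synthetases, 7 had a peak and only CARS2 passed, with 4.57-fold over 7 fragments. Beside all of these lists, 34.7% of all protein-coding genes had a peak, and 53.2% of those with a peak had a passing one. The lists were not tested against these shares.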

How the data were processed

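The 4 libraries, 2 of YTHDF2 RIP and 2 of input, were grouped by their titles. Reads were aligned with HISAT2 and peaks called with MACS2 on hg38, per the submitters' processing notes. The sources used here give neither versions and options nor the way the libraries were combined, nor whether the replicates were separate cultures. The authors' deposited list gives, per the file headers, a fold enrichment (a ratio at the summit), −log10 p, −log10 q and a score for each peak, which was not used. The lowest −log10 p was 1.303. The fold is the authors' value throughout. Peak positions are as deposited.

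RIP fragments and background at a summit were solved from fold and −log10 p, taking the fold as (fragments + 1) / (background + 1) and p as a Poisson tail. The result met each deposited −log10 p within 0.000189. The solving step was tested on data simulated with these same formulas, which cannot show that the deposited values were made that way. Gene spans, types and promoter windows came from RefSeq tables of GRCh38.p14. Of several genes at a summit, protein-coding ones took precedence, next the deposited gene and last the shortest. On contigs outside the table the deposited gene's span was used. The deposited gene matched that of the rule for 52 of the 74 peaks, and 6 summits lay in a further gene. Strand came from the promoter table, or else from the list. No strand of reads is known.

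Exact Clopper-Pearson 95% intervals were computed for the feature-class shares over all gene spans, and the other shares have none. No test was made across genes, which are not replicates, and without molecular identifiers reads do not count molecules. Members and lists were chosen with earlier results of these data known. Named genes were, in each group, up to 6 with the highest fold and a passing peak, those with the most peaks, highest −log10 q or most fragments, and the lowest, and up to 3 from each pathway list. Other genes were named to account for every member. Python 3.11.15, pandas 2.3.3, numpy 2.4.6, scipy 1.17.1 and matplotlib 3.10.9 were used. Alternatives covered q, gene assignment, contigs, peak choice and fragment number.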

Additional observations from a re-analysis of the deposited data

How the results depend on the processing

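No paired analysis was possible because the list holds no value for any single library, and no replicate could be left out for the same reason. The 61 genes with a peak became 50 with the deposited gene, 59 on main chromosomes and 62 when 1 bp of overlap sufficed. The 48 genes with a passing peak became 51 at a q of 0.05, 37 at a −log10 q of at least 5 and 37 with the deposited gene. The median best-peak log2 fold of 1.23 was 1.14 as a mean over peaks, 1.28 among passing peaks, 1.12 at 20 or more fragments, 1.01 with exon and UTR peaks, 1.31 with the deposited gene, and 1.16 without summits in a further gene or without alternative contigs, the last pair added after seeing the data. The difference from all protein-coding genes, -0.158, was -0.0967 with the best peak by −log10 q, -0.113 as a mean over peaks, -0.117 among passing peaks, -0.00331 at 20 or more fragments, -0.265 with exon and UTR peaks, -0.0749 with the deposited gene, -0.221 without summits in a further gene and -0.218 on main chromosomes. It was negative in each of these settings, but at 20 or more fragments both medians were 1.12. Within classes of fragment number the members' median fold was lower only with at least 120 fragments (2.11 against 2.23). It was higher with 60 to 119 (2.15 against 2.11), with 20 to 59 (2.89 against 2.32) and under 20 (3.59 against 2.78). With passing peaks ranked by −log10 q, the median log2 fold of the large subunit was 1.3 in place of 1.15 and that of the TOM group 1.41 in place of 1.36. The 3' UTR share of 40.5% ranged from 38.2% among passing peaks to 43.9% at 20 or more fragments. The cause of these shifts was not tested.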

Other observations

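The RefSeq table held 129 pseudogenes with names of this pattern, and 31 of the 61 genes with a peak had at least 1 named pseudogene. Summits of 2 peaks lay in such a pseudogene, and 1 peak was given to one, TIMM8BP2, at 2.43-fold over 13 fragments, and it did not pass. The sources used here do not say how reads shared with pseudogenes were placed. Of the 92 promoter windows in the table, 1 was overlapped by any peak of the list.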
